A study of Mus musculus with 7 samples.

Results

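The tachykinin genes Tac1, Tac2 and Tacr3 were followed in forebrain RNA of mice at postnatal day 15. They were taken by symbol as 3 of the 47729 genes of the count table, and all 3 were among the 19684 genes that had at least 10 counts in at least 3 libraries and were tested. Tac1 RNA was higher in Lhx6-/- forebrain, with means of 490 ± 95.2 (SD, n = 4) normalized counts in control and 874 ± 153 (SD, n = 3) in mutant libraries. Tac2 RNA had closely similar means in the genotypes, and Tacr3 RNA was lower on average in the mutants without passing the test.

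Tachykinins are short neuropeptides that are cut from larger precursors, amidated at their carboxy terminus and released by neurons. Tac1 codes for the precursor of substance P and neurokinin A, Tac2 for that of neurokinin B, and Tac4 for that of hemokinin. Their receptors, NK1 (Tacr1), NK2 (Tacr2) and NK3 (Tacr3), couple to Gq proteins and prefer substance P, neurokinin A and neurokinin B, respectively. In the forebrain, Tac1 is known for its expression in striatal projection neurons of the direct pathway, which also carry the dopamine receptor Drd1, and in a share of interneurons and of medial habenula neurons. Tac2 is known from subsets of cortical interneurons, some of which make the peptide Vip, from the amygdala and from hypothalamic neurons.

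The study compared the transcriptome of control and mutant forebrain to learn about the surroundings in which cortical interneurons survive or die. Lhx6 is a LIM homeodomain transcription factor of interneurons born in the medial ganglionic eminence, among them those making parvalbumin or somatostatin. Controls were Lhx6+/- and mutants Lhx6-/-, for a constitutive null allele, so that the gene was missing from every cell type of the mutants and the controls also lacked 1 copy. All animals were of strain F1(C57BL/6 X 129Sv), no other agent or allele was given for either genotype, and each of the 7 samples pooled 2 animals and whole forebrain, of which cortex is a part. P-values therefore set the genotype difference against the spread between pools, not between single animals. In whole tissue, fewer cells of a type and less RNA per cell cannot be told apart.

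The peptides that the RNAs encode are shown by their coding sequences, in the 5′ to 3′ direction of the plus strand of GRCm38 and taken from the GENCODE M21 transcripts. Capitals mark the 15 bases that code for the carboxy-terminal residues that define the family. The last 9 bases code for the glycine that gives rise to the amide and for the pair of basic residues at which the precursor is cut. Substance P has 11 residues (exon 3 of Tac1, chr6:7556732-7556773), neurokinin A has 10 (exon 6 of Tac1, chr6:7559101-7559139) and neurokinin B has 10 (exon 5 of Tac2, chr10:127729116-127729154).
Substance P: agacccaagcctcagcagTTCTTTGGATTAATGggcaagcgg
Neurokinin A: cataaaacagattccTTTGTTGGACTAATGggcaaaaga
Neurokinin B: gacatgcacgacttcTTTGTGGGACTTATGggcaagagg
Both Tac1 peptides lie on exons of their own, so that a gene count cannot tell how much of the RNA carried each of them.

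The 7 libraries held between 32556304 and 38069151 expected counts, and 3 counts in a library corresponded to 0.0788 to 0.0921 CPM, the count scaled to library size. These limits cover counting error only. Libraries are named by the numbers in the columns of the table, 2, 3, 10 and 11 for controls and 5, 12 and 13 for mutants. On the first principal component, with 39.6% of the variance, libraries 2, 3 and 5 stood apart from libraries 10 to 13, and both runs of numbers held both genotypes. Lhx6 itself had 476 to 615 normalized counts in controls and 70.1 to 76.6 in mutants, a log2 fold change of -2.88 (SE 0.135, adjusted p = 5.99e-05 by the quasi-likelihood test of edgeR, with Benjamini-Hochberg adjustment over all tested genes here and below). Neuronal markers of the labelled tissue were well detected, with 62493 to 73434 normalized counts in controls and 73567 to 90144 in mutants for Slc17a7, the vesicular glutamate transporter of cortical excitatory neurons. Over all tested genes, 954 passed an adjusted p of 0.05, 585 higher and 369 lower in mutants, and the median log2 fold change was -0.01.

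**Figure D1:**
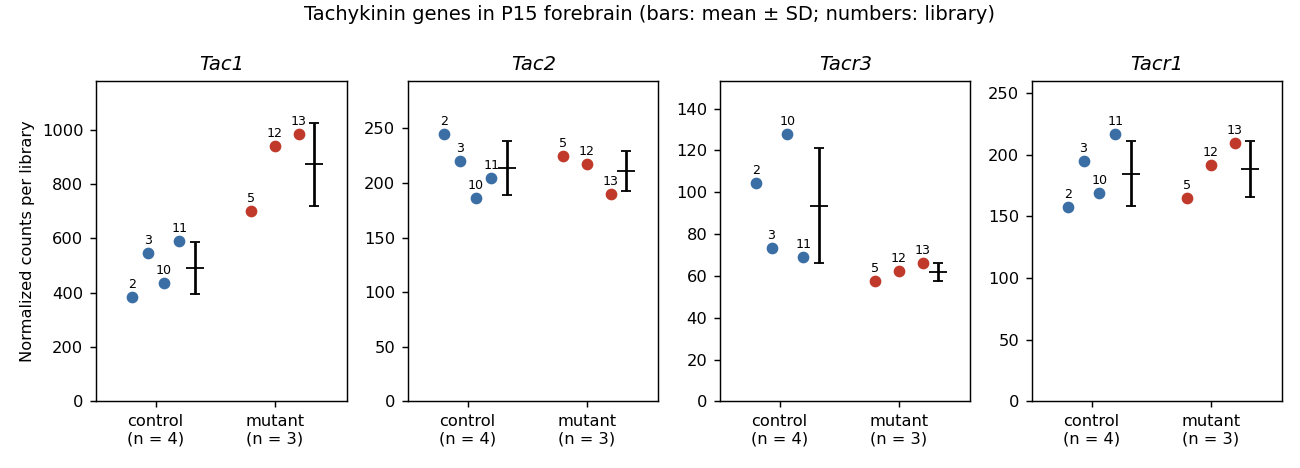
Normalized counts per library (vertical axis, starting at 0) of Tac1, Tac2, Tacr3 and Tacr1 in the 4 control and 3 mutant libraries, with numbers naming the library and bars giving the mean ± SD. Tac1 lies between 385 and 591 in controls and between 699 and 983 in mutants, while the Tac2 and Tacr1 libraries of the genotypes intermingle and the mutant libraries of Tacr3 lie just under the lowest control.

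Among the ligand genes, Tac1 (ENSMUSG00000061762, plus strand of chromosome 6, 7554879 to 7565834, 5 transcripts) rose in the mutants. Control libraries 2, 3, 10 and 11 held 385, 547, 438 and 591 normalized counts of it, and mutant libraries 5, 12 and 13 held 699, 939 and 983. Every mutant library was above every control library, with mutant library 5 the lowest of its group and control library 11 the highest of its own. Such separation, in either direction, was found for 19.7% of all tested genes. The mutant level was 78.2% higher, a log2 fold change of 0.83 (SE 0.177, 95% interval 0.43 to 1.24, adjusted p = 0.0333 by the quasi-likelihood test of edgeR). Tac1 was the 1 of the 3 genes to pass the test, where 4.85% of all tested genes did so in either direction, 2.97% being higher and 1.87% lower.

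The rise of Tac1 was present within both runs of library numbers, at 0.61 on the log2 scale in libraries 2, 3 and 5 and at 0.92 in libraries 10 to 13. Its adjusted p lay close to the threshold and was above it when control library 2 (0.0685), control library 10 (0.0894), mutant library 12 (0.129) or mutant library 13 (0.151) was left out, while the log2 fold change stayed between 0.73 and 0.98. Behind these values stood 351 to 581 expected counts in controls and 730 to 1038 in mutants, for which counting alone gives a coefficient of variation of 3.10% to 5.34%.

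Tac2 (ENSMUSG00000025400, plus strand of chromosome 10, 127724478 to 127731767, 2 transcripts), the other ligand gene with substantial counts, did not pass the test. Control libraries 2, 3, 10 and 11 contained 245, 220, 186 and 204 normalized counts of it, against 225, 217 and 190 for mutant libraries 5, 12 and 13. The genotypes overlapped throughout, and both had their lowest library in the later run of numbers. Means were 214 ± 24.8 (SD, n = 4) and 211 ± 18.3 (SD, n = 3), a log2 fold change of -0.02 (SE 0.135, adjusted p = 0.967 by the quasi-likelihood test of edgeR). The 95% interval of that change, -0.33 to 0.29, leaves room for a difference of that size in either direction. It did not reach the interval of Tac1, although the difference between the changes of the ligand genes was not itself tested. Within the runs of library numbers the Tac2 change was -0.04 and 0.06.

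Tac4, the hemokinin gene, was at the limit of detection, with 0 to 2.03 normalized counts in controls and 0 to 0.958 in mutants. No library exceeded 3 counts, so no fold is given and a difference was not detectable at this depth.

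Among the receptor genes, Tacr3 (ENSMUSG00000028172, plus strand of chromosome 3, 134829007 to 134934579, 1 transcript), which codes for the neurokinin B receptor NK3, had the lower mean in mutants. Normalized counts were 104, 73.3, 128 and 69.1 for control libraries 2, 3, 10 and 11, against 57.5, 62.1 and 66.3 for mutant libraries 5, 12 and 13. Control libraries 2 and 10 were high, whereas control libraries 3 and 11 were near the mutants, and the groups were apart by no more than the step from 66.3 to 69.1. Groups that did not overlap were found for 19.7% of all tested genes.

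The Tacr3 means were 93.6 ± 27.6 (SD, n = 4) and 62.0 ± 4.41 (SD, n = 3), a log2 fold change of -0.59 (SE 0.245, 95% interval -1.15 to -0.04). With an unadjusted p of 0.0394 and an adjusted p of 0.243 in edgeR (quasi-likelihood, Benjamini-Hochberg), Tacr3 did not pass, and 18.2% of all tested genes had an unadjusted p of 0.05 or less. The change was -0.59 in libraries 2, 3 and 5 and -0.54 in libraries 10 to 13. Tacr3 rested on 60.0 to 133 expected counts, which gives a counting variation of 8.67% to 12.9%, so that counting alone blurs differences between neighbouring libraries.

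Tacr1 (ENSMUSG00000030043, plus strand of chromosome 6, 82402334 to 82560104), the gene of the substance P receptor NK1, had 158, 195, 169 and 216 normalized counts across control libraries 2, 3, 10 and 11. Mutant libraries 5, 12 and 13 had 165, 191 and 209, inside the range of the controls. The log2 fold change was 0.03 (SE 0.155, 95% interval -0.32 to 0.38, adjusted p = 0.951 by the quasi-likelihood test of edgeR). Tac1 passed the threshold and the gene of the receptor that prefers substance P did not, but the difference between their changes was not tested. Tacr2, the gene of the NK2 receptor, had 2.01 to 5.76 normalized counts in controls and 4.14 to 6.70 in mutants and was too low to be tested.

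Levels of different genes were compared as CPM per kilobase of the longest coding transcript. Tac1 was the most abundant tachykinin RNA on this scale, at 11.2 ± 2.17 (SD, n = 4) in controls and 19.9 ± 3.48 (SD, n = 3) in mutants. Tac2 followed at 7.03 ± 0.815 and 6.94 ± 0.601. On this scale the ranges of these ligand genes did not meet in either genotype. In controls Tac1 had 8.78 to 13.5 and Tac2 6.13 to 8.05. In mutants Tac1 had 15.9 to 22.4 and Tac2 6.26 to 7.41. This order depends on the length used. The longest coding transcript of Tac1 has 1230 bases and its merged exons 3399, against 852 and 883 for Tac2. Merged exons would lower Tac1 far more than Tac2, so the order of these genes is not settled.

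The receptor RNAs were far below the Tac1 and Tac2 RNAs on the per-kilobase scale. Tacr1 had a level of 1.03 ± 0.147 in controls and 1.05 ± 0.125 in mutants, and Tacr3 one of 0.697 ± 0.206 and 0.462 ± 0.0329. In controls, Tacr1 (0.882 to 1.21) and Tacr3 (0.515 to 0.951) overlapped and were not separated beyond their spread, whereas in mutants the lowest Tacr1 library, 0.920, was above the highest Tacr3 library, 0.494. Tacr2 and Tac4 were the lowest, at 0.0501 and 0.0224 in controls and 0.0723 and 0.0142 in mutants.

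Ratios within a library do not depend on how libraries were scaled to each other. The ratio of Tac1 to Drd1 counts was 0.694, 0.745, 0.724 and 0.751 for control libraries 2, 3, 10 and 11, and 1.26, 1.06 and 1.11 for mutant libraries 5, 12 and 13. Control libraries were close together, and every mutant library lay above them. On the log2 scale the ratio was -0.46 ± 0.05 (SD, n = 4) in controls and 0.19 ± 0.13 (SD, n = 3) in mutants, a difference of 0.65 with p = 0.0286 in an exact two-sided permutation test, the smallest p that 35 splits of 7 libraries allow. Drd1 itself had 555, 735, 605 and 787 normalized counts in controls and 556, 885 and 883 in mutants, with overlapping groups.

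The ratio of Tac2 to Vip was 0.370, 0.226, 0.177 and 0.236 for control libraries 2, 3, 10 and 11, and 0.159, 0.118 and 0.104 for mutant libraries 5, 12 and 13. Mutant libraries were all below the controls, but the log2 difference of -0.96 had p = 0.0571 in the exact two-sided permutation test and did not pass. Vip RNA was higher in mutants, while the Tac2 values of the genotypes overlapped.

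The ratio of Tacr3 to Tac2, of receptor to preferred ligand, was 0.429, 0.336, 0.687 and 0.342 for control libraries 2, 3, 10 and 11, and 0.258, 0.289 and 0.351 for mutant libraries 5, 12 and 13. The groups overlapped, with control library 10 the highest. The log2 difference was -0.53 with p = 0.171 in the exact two-sided permutation test, and -0.30 without control library 10. Adjusted over the 3 ratios by the Benjamini-Hochberg method, the permutation p was 0.0857 for Tac1 to Drd1, 0.0857 for Tac2 to Vip and 0.171 for Tacr3 to Tac2, so that none passed.

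**Figure D2:**
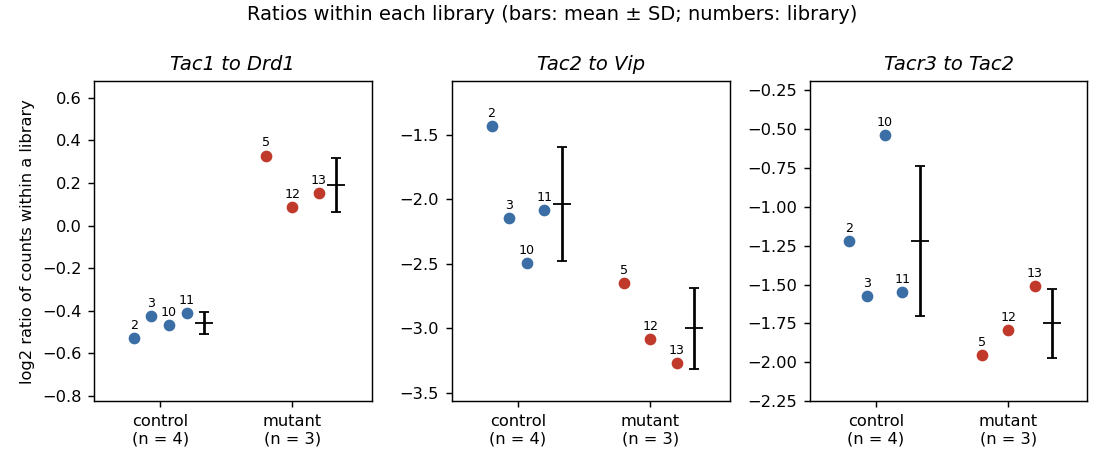
Log2 ratio of counts within each library (vertical axis) for Tac1 to Drd1, Tac2 to Vip and Tacr3 to Tac2, with 4 control and 3 mutant libraries numbered and bars giving the mean ± SD. The ratio of Tac1 to Drd1 runs from -0.53 to -0.41 in controls and from 0.09 to 0.33 in mutants, and the groups overlap for Tacr3 to Tac2.

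Enzymes that make tachykinins from their precursors were part of the same comparison. Of 8 genes for precursor processing, 2 rose and none fell, where 2.97% of all tested genes rose and 1.87% fell, and the median log2 fold change was 0.17, beside -0.01 over all tested genes. Pcsk1, a prohormone convertase that cuts at pairs of basic residues, had 637, 620, 787 and 731 normalized counts in controls and 1192, 1274 and 1186 in mutants. Its groups were well apart, and its log2 fold change was 0.81 (SE 0.103, adjusted p = 0.00424 by the quasi-likelihood test of edgeR). Pam, the enzyme that amidates the carboxy terminus, had 6316, 6556, 6580 and 6127 in controls and 9668, 9310 and 9170 in mutants. Its mutant libraries were again all higher, with a log2 fold change of 0.55 (SE 0.0719, adjusted p = 0.00466). Pam shares 188 of its 11892 exonic bases with other genes. Among members that did not pass, every mutant library of Pcsk2 and of Pcsk1n (-0.37, adjusted p = 0.197) lay below every control library. Mutant libraries of Qpct (0.26, adjusted p = 0.351) all lay above. Pcsk2, the other neuronal convertase, had a log2 fold change of -0.31 (adjusted p = 0.155). Cpe, the carboxypeptidase that trims the basic residues, had one of 0.18 (adjusted p = 0.354). These enzymes act on many neuropeptides, and their RNA was measured in the whole tissue, not in cells with Tac1.

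Of 5 genes for peptidases that break tachykinins or similar peptides down, none passed the test, beside 4.85% of all tested genes. Their median log2 fold change was 0.09. A list of 5 could hold none at the share of all tested genes. Mme, which codes for neprilysin, had a change of -0.13 (adjusted p = 0.867), and Ace, which codes for angiotensin-converting enzyme, one of 0.33 (adjusted p = 0.410). Of 16 genes for signalling of Gq-coupled receptors, Adrbk2 fell and none rose, a share near the 4.85% of all tested genes that passed, and their median was -0.10. Adrbk2, a kinase that desensitises receptors, had 3875, 3226, 3395 and 3333 normalized counts in controls and 2645, 2432 and 2386 in mutants, without overlap. Its log2 fold change was -0.47 (SE 0.0874, adjusted p = 0.0188), and its adjusted p was 0.0519, 0.0925 and 0.111 without control library 10, mutant library 12 and mutant library 13. Gnaq, the alpha subunit of Gq, had a change of -0.11 (adjusted p = 0.497) and Itpr3, an intracellular calcium channel, one of 0.53 (adjusted p = 0.183).

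**Figure D3:**
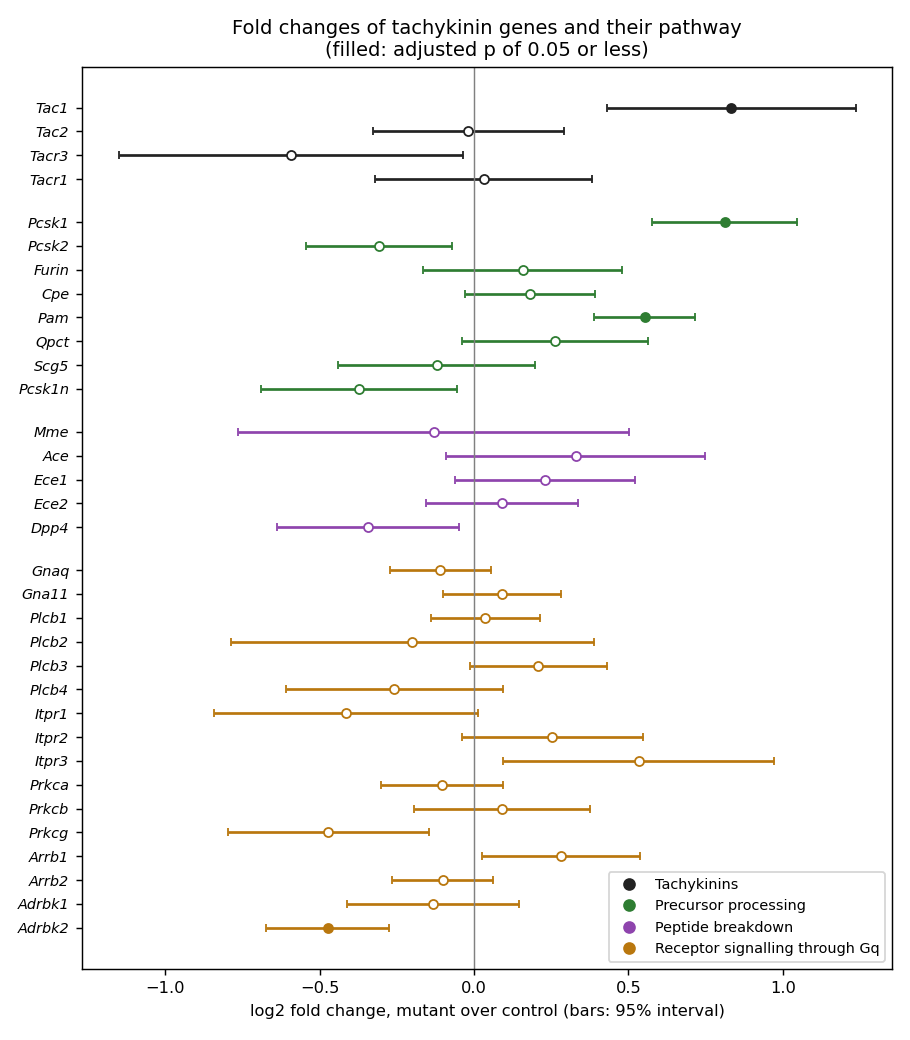
Log2 fold change of mutant over control (horizontal axis) with its 95% interval for the 4 tested tachykinin genes and for genes of precursor processing, peptide breakdown and signalling through Gq. Filled points passed an adjusted p of 0.05, namely Tac1 (0.83), Pcsk1 (0.81) and Pam (0.55) on the higher side and Adrbk2 (-0.47) on the lower side.

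Tac1 and Tac2 mark several kinds of neurons, so markers of these neurons were placed beside them. Of 7 markers of direct pathway striatal neurons, the cells best known for Tac1, none passed the test in either direction. Of all tested genes 4.85% passed, and a list of 7 could hold none at that share. The median log2 fold change of these 7 markers was 0.19 and their range -0.55 to 0.54. Drd1 had a change of 0.21 (95% interval -0.22 to 0.64, adjusted p = 0.651) and Pdyn, the gene of the peptide dynorphin made by the same neurons, one of -0.20 (adjusted p = 0.440). Within libraries 2, 3 and 5 and within libraries 10 to 13, Drd1 had values of -0.20 and 0.36 on the log2 scale, and it had 0.41, 0.10 and 0.11 without mutant library 5, 12 or 13 and 0.13 without control library 2. The summed level of the 7 markers was 4740 to 5245 normalized counts in controls and 4530 to 5316 in mutants, which overlapped.

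Of 5 tested markers of indirect pathway striatal neurons, Penk, the gene of the enkephalin precursor, rose and none fell, beside 2.97% and 1.87% of all tested genes. For Penk, control libraries 2, 3, 10 and 11 held 2272, 4025, 2454 and 3518 normalized counts, and 6160, 7999 and 6923 were in mutant libraries 5, 12 and 13. As for Tac1, libraries 3 and 11 were the higher of the controls and library 5 was the lowest of the mutants. The log2 fold change was 1.196 (SE 0.201, adjusted p = 0.0130 by the quasi-likelihood test of edgeR), and the adjusted p was 0.0595 and 0.0579 without mutant libraries 12 and 13. Penk shares 233 of its 1634 exonic bases with a gene on the other strand. The other 4 markers of these neurons did not pass, Drd2 with a change of 0.60 (adjusted p = 0.425). None of 7 markers shared by both kinds of striatal neurons passed, and their median was 0.23. With 4.85% of all tested genes passing, lists this short could hold none.

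Among interneuron markers, 2 of 8 for Vip and other interneurons of the caudal ganglionic eminence rose and none fell, beside 2.97% and 1.87% of all tested genes, with a median log2 fold change of 0.15. Vip had 663, 975, 1056 and 868 normalized counts in controls and 1419, 1855 and 1841 in mutants, while Tac2, which part of these cells make, overlapped between the genotypes. The change of Vip was 0.94 (SE 0.163, adjusted p = 0.0150), and that of Adarb2, an RNA-binding protein of these cells, was 0.63 (adjusted p = 0.0109). Without mutant library 12 or 13, the adjusted p was 0.0685 and 0.0804 for Vip and 0.0534 and 0.0554 for Adarb2. Calb2, the gene of calretinin, had a change of -0.57 (adjusted p = 0.424).

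Interneurons that require Lhx6 also include cells with Tac1. Of 6 markers of parvalbumin interneurons, 4 fell and none rose, beside 1.87% and 2.97% of all tested genes, with a median of -0.95. Those that fell were Pvalb, a calcium buffer (-3.05, adjusted p = 0.000389), the synaptic gene Syt2 (-1.30, adjusted p = 0.000674) and the potassium channel genes Kcnc1 (-0.61, adjusted p = 0.0343) and Kcnc2 (-1.32, adjusted p = 0.0122). The adjusted p of Kcnc1 was between 0.0723 and 0.161 when any library other than control library 3 was left out, and that of Kcnc2 was 0.0616 without mutant library 13. The remaining markers, the peptide gene Pthlh (0.52, adjusted p = 0.193) and the muscle-type cytochrome oxidase subunit gene Cox6a2 (0.40, adjusted p = 0.152), had positive values and did not pass. Of 4 markers of long-range Nos1 interneurons, which are also known for Tacr1, 1 rose and 3 fell, beside 2.97% and 1.87% of all tested genes. The peptide gene Npy rose (1.69, adjusted p = 0.000226), while the peptide gene Sst (-3.19, adjusted p = 6.37e-05), Nos1, a nitric oxide synthase (-0.70, adjusted p = 0.0337), and Chodl (-1.79, adjusted p = 0.0289) fell. The adjusted p of Nos1 was between 0.0673 and 0.135 when each of the same 6 libraries was left out. With Y-linked expression as covariate it was 0.0646 for Nos1 and 0.0650 for Kcnc1, and that of Chodl was 0.0646, 0.0591, 0.112 and 0.134 without control libraries 2 and 10 and mutant libraries 12 and 13. Tac1 rose while most of these markers of interneurons fell, and Tacr1 stayed within the control range.

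Markers of other regions that the dissection could hold were read in the same way, beside the rise of Tac1. Of 8 medial habenula markers, 7 were tested, 2 rose and none fell, beside 2.97% and 1.87% of all tested genes. The median log2 fold change of these 7 was 0.70. Chrnb3, a nicotinic receptor subunit, had 27.4, 69.3, 61.4 and 44.7 normalized counts in controls and 327, 395 and 398 in mutants, and Gpr151, an orphan receptor, had 17.5 to 24.4 and 52.1 to 59.4. The changes were 2.87 (adjusted p = 0.000981) for Chrnb3 and 1.38 (adjusted p = 0.00940) for Gpr151. The summed level of the 8 habenula markers was 224 to 310 in controls and 592 to 669 in mutants. Chrnb3 made up most of that rise. The other tested markers went both ways, at 0.82 for Nhlh2, 0.70 for Chrnb4, 0.07 for Htr5b, -0.20 for Gng8 and -0.43 for Chrna3. None of them passed. Every mutant library of Chrna3 was below every control library, and every mutant library of Nhlh2 was above. The defining transcription factor Pou4f1 was below the filter, with 4.39 to 7.68 normalized counts in controls and 5.18 to 20.1 in mutants. The part of habenular tissue in the Tac1 result was not tested.

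Of 4 olfactory bulb markers, beside 2.97% of all tested genes higher and 1.87% lower, Th, the enzyme that starts dopamine synthesis, rose (2.83, adjusted p = 0.000440) and Cdhr1, a cadherin-related gene of mitral cells, fell (-0.79, adjusted p = 0.0441). The adjusted p of Cdhr1 was between 0.0752 and 0.123 when any library other than control library 3 was left out, and 0.0752 with Y-linked expression as covariate. None of 6 tested hypothalamic markers passed, with a median of 0.01, and the 11 hypothalamic markers summed to 1114 to 1275 in controls and 974 to 1102 in mutants. Kiss1, made with neurokinin B in the hypothalamus, was below the filter at 0 to 7.11 and 0 to 3.83 normalized counts, and is uncertain, since 583 of its 741 exonic bases are shared with other genes. None of 5 thalamic (median -0.09), 3 tested midbrain and hindbrain (median 0.78, summed levels of all 9 of 101 to 135 and 140 to 174) or 5 choroid plexus markers (median -0.60, summed levels of 4609 to 9869 and 2262 to 7568) passed. Lists this short could hold none at the 4.85% of all tested genes that passed. The part of these regions in the Tac1 and Tac2 values was not tested.

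**Figure D4:**
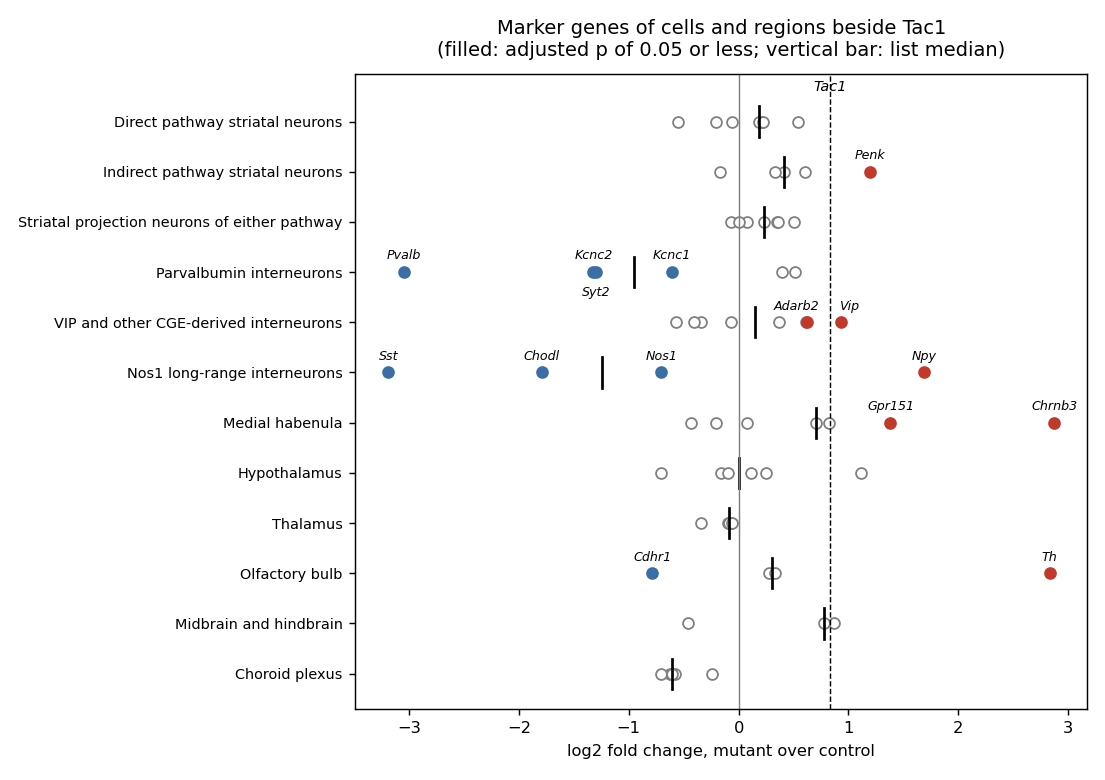
Log2 fold change of mutant over control (horizontal axis) of each tested marker gene, by list, with filled points for an adjusted p of 0.05 or less, a short vertical bar for the list median and a dashed line for Tac1 at 0.83. No direct pathway striatal marker reaches the Tac1 line, and Penk (1.196), Vip (0.94), Npy (1.69), Chrnb3 (2.87), Gpr151 (1.38) and Th (2.83) are the filled points beyond it.

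Genes with the profile most like that of each tachykinin gene were found by the root mean square difference of centred log2 CPM over the 7 libraries, among 15761 genes with a mean of at least 1 CPM. Nearest to Tac1, whose own root mean square deviation was 0.476, was C030027H14Rik, at a difference of 0.130. That gene is uncertain, since 434 of its 457 exonic bases lie across from Srgap1. Next came Gpr21, an orphan receptor gene within another gene (0.144), Cd274, which codes for PD-L1 (0.149), the potassium channel gene Kcna5 (0.150) and Fam198b (0.161). Their log2 fold changes ran from 0.75 for Gpr21 to 1.08 for C030027H14Rik, which follows from the choice of genes by likeness to Tac1 over the same libraries and is no separate result.

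Tac2 varied little, with a deviation of 0.128 over the libraries, and its nearest genes were Pou3f3, a forebrain transcription factor gene (0.0203), Mid1ip1, Tmem259, Gmppa and Epn1 (0.0364). Mid1ip1 shares 25.5% and Tmem259 22.7% of exonic bases with genes on the other strand and are uncertain. For Tacr3, with a deviation of 0.382, the nearest were Zfp85os (0.158), Slc9a2 (0.175), Gm43860 (0.175), Gm43457 (0.177) and the glutamate receptor gene Grin3a (0.181). Their fold changes are likewise set by the choice, and Grin3a, the most abundant of them, had means of 2642 and 1725 normalized counts.

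**Figure D5:**
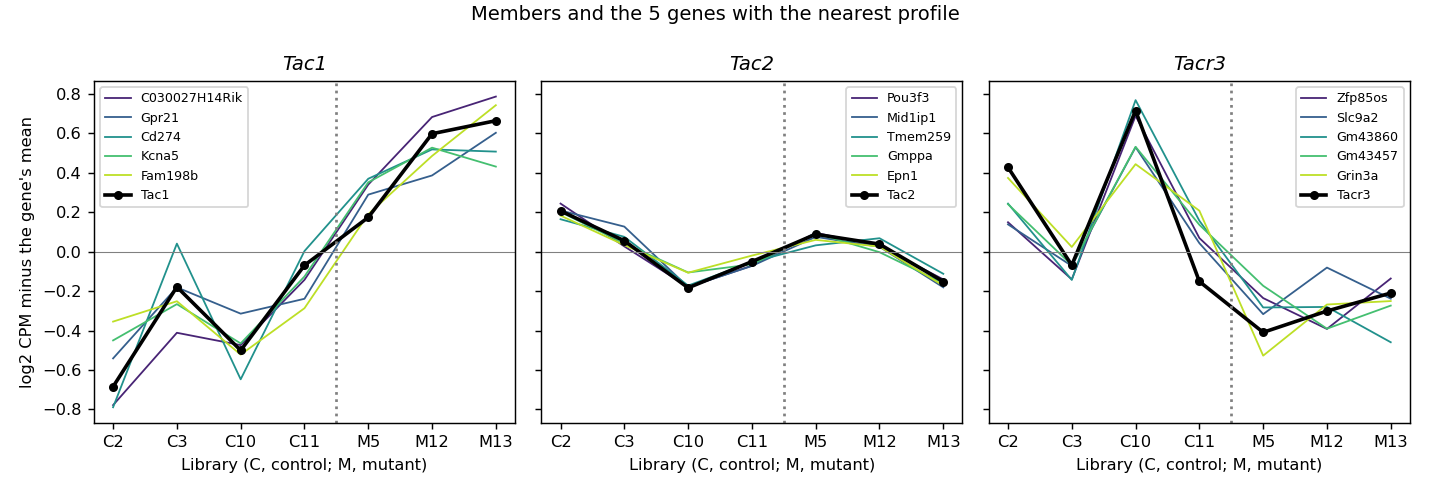
Log2 CPM minus each gene's mean (vertical axis) in the 4 control (C) and 3 mutant (M) libraries for Tac1, Tac2 and Tacr3 in black and the 5 genes nearest to each in colour. Lines join libraries for reading only, and the Tac1 set is lower in controls, the Tac2 set nearly flat and the Tacr3 set highest in control library 10.

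The 250 bases before the RefSeq start of each tachykinin gene (GRCm38.p6) were searched on both strands for TGACG, the core of the cAMP response element, for its full form TGACGTCA, which contains that core, and for TAATTA, a core that LIM homeodomain factors are known to bind. Windows of Tac1 and Tacr3 are shown, plus strand, with the matched letters in capitals, where CGTCA is TGACG read on the other strand.
Tac1, TGACG, 197 bases before the start (chr6:7554852-7554880): tccctaaaattgCGTCAtttcgaacacaa
Tac1, TAATTA, 100 bases before the start (chr6:7554949-7554978): cgagggggcggcTAATTAaatattgagcag
Tac1, TGACG, 43 bases before the start (chr6:7555006-7555034): gctctacaggctCGTCAcgcctgagataa
Tacr3, TGACG, 58 bases before the start (chr3:134828937-134828965): tgcaacccgcgaCGTCAcggaagctgggg
Tacr1 held TGACG 226 bases before its start, Tac2, Tac4 and Tacr2 held none of these letters, and TGACGTCA was in none of the 6 windows. Of 32851 RefSeq promoters of this length, 17.8% held TGACG, 1.55% TGACGTCA and 4.84% TAATTA. The RefSeq start of Tac1 lies inside the Ensembl gene used for counting, so that the windows 100 and 43 bases before it fall within that gene and the one 197 bases before it meets the gene's first bases. These matches describe the letters of the windows and are not binding sites.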

How the data were processed

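Forebrain RNA of 4 Lhx6+/- and 3 Lhx6-/- pools was read as single ends. Per the labels and the study's methods, the authors trimmed reads with cutadapt 1.9.1, aligned them with Bowtie2 2.2.9 to the GRCm38 transcriptome of Ensembl release 84 and deposited expected counts per gene from RSEM 1.2.31, not normalized. RSEM divides reads that match several genes, and 0% of the 36-base words of Tac1, Tac2 and Tacr3 (1.09% for Tacr1) occur in other genes. Strandedness of the counting is not given in the sources used here, but no tachykinin gene overlaps another gene. A deposited DESeq2 table of the authors' comparison (log2 fold change, its error, test statistic and p-values) served for gene symbols alone.

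Columns carry genotype and library number, so recorded sex and RNA integrity were not assigned to libraries, and 0 columns of sample values stayed unused. Expected counts were rounded. Genes that reached 10 counts in 3 libraries or more were scaled by TMM and tested with edgeR 4.0.16 (R 4.3.3), quasi-likelihood, no covariate, two-sided, with Benjamini-Hochberg adjustment over all 19684 genes at 0.05. Normalized counts are counts over effective library size times its mean. Standard errors are the absolute fold change (log2) divided by the root of F. Ratios added 1 count to each gene. Scripts were tested on simulated data. Each library counted as 1 replicate because it was a separate pool. Libraries of a genotype differed by more than sampling noise (chi-square per degree of freedom 9.93 to 70.4).

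Named were the tachykinin genes, members of the lists with their list, Lhx6, and the 5 nearest genes of each of Tac1, Tac2 and Tacr3. Members and lists were chosen with earlier results of these data known. Alternatives were DESeq2 1.42.0, limma 3.58.1 (voom), other scalings and filters, the run of library numbers or Y-linked expression as covariate, libraries 10 to 13 alone, and each library left out. The list of forebrain neuron markers is not reported here.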

Additional observations from a re-analysis of the deposited data

How the results depend on the processing

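The direction of Tac1 was the same in all 16 alternatives, with log2 fold changes of 0.73 to 0.98 and adjusted p from 0.00039 (DESeq2) to 0.151. It passed the test in all except those without control library 2 or 10 or mutant library 12 or 13, with an adjusted p of 0.0490 beside Y-linked expression. Tacr3 was lower and did not pass in any of the 16, at -0.71 to -0.41 and adjusted p of 0.152 to 0.453. The sign of Tac2 (-0.02) turned with upper quartile scaling (0.0055), with the run of library numbers as covariate (0.019), in libraries 10 to 13 alone (0.073) and in fits without 1 library (-0.080 to 0.052), and that of Tacr1 (0.03) with the run as covariate (-0.0039) and in fits without 1 library (-0.050 to 0.129), and neither passed in any fit. Genes that passed numbered 954, against 1731 with DESeq2, 2205 with the run as covariate, 1922 in libraries 10 to 13 alone and 302 to 971 when libraries were left out (302, 387 and 458 without mutant libraries 13, 12 and 5, 513 and 589 without control libraries 10 and 11). Of them 61.3% were higher, and with upper quartile scaling 67.7%. List members that passed numbered 18, against 28 with the run as covariate, 32 in libraries 10 to 13 alone and 9 to 18 when libraries were left out (9 and 10 without mutant libraries 13 and 12). The log2 ratio of Tac1 to Drd1 differed by 0.58 to 0.70 when libraries were left out and by 0.56 in libraries 10 to 13 alone. With 6 libraries its unadjusted p could not fall under 0.0667, by the number of splits, and adjusted over the 3 ratios it had not passed with all 7. For 21 other named genes, 335 values held 0 reversals and 35 losses of significance. Without a filter Tac4 had an adjusted p of 0.896 and Tacr2 one of 0.765. No paired analysis was possible because the columns carry library numbers, not the replicate numbers of the labels. Depth limits Tacr3, Tacr2 and Tac4 most. Of 30 values tested for a control library far from the others, 0 had one.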
